A study of Homo sapiens with 12 samples.

Results

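Interferon-stimulated genes are the effector arm of the antiviral response, and 47 of them were followed here in PE/CA-PJ41 cells, an established human oral squamous cell carcinoma line. They were taken by gene symbol from a list that covers RNA sensors, IFIT proteins, the ISG15 system, interferon-induced GTPases, membrane and organelle effectors, transcription factors, ADP-ribosylation and ubiquitin proteins and other interferon-induced genes. All 47 were present among the 20375 genes of the deposited tables, and 45 passed the filter on low values described below, which 12517 genes passed in all. Messenger RNA was measured by RNA sequencing of polyadenylated RNA in 12 libraries. In 4 libraries the cells had received 10% human plasma for 48 h (plasma), in 4 they had received 10% platelet-rich plasma (PRP) for 48 h, and 4 came from untreated cells (control), for which the labels give no culture time. Neither the number of blood donors nor any pooling is stated. Replicates are not described as separate cultures either, and p-values therefore describe library-to-library spread that could be technical in part or in whole.

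Interferons bind surface receptors whose kinases, JAK1 and TYK2 among them, phosphorylate STAT proteins. Type I and type III interferons act through a complex that includes STAT2 and IRF9 and binds the interferon-stimulated response element (ISRE), while interferon gamma acts through STAT dimers that bind the gamma-activated site (GAS). The genes induced in this way encode proteins that sense viral RNA, block entry, stop translation or degrade RNA, and epithelial cells, keratinocytes included, carry the pathway.

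Exact motif matches near the starts of these genes show where a core of either element lies in the reference sequence. A gene without a match may hold a variant or a more distant element, which was not searched for. RefSeq promoter windows (GRCh38.p14, from 250 bases before to 50 bases after each annotated start) were listed for 38 of the 47 genes, and the 9 without an entry were OAS2, OASL, IFIT2, USP18, MX2, GBP2, IFITM2, IRF7 and TRIM22. The ISRE core was searched as GAAANNGAAA and the GAS core as TTCNNNGAA, each on both strands, although the GAS core reads the same on either. At least 1 ISRE core lay in the windows of 26 of the 38 genes (68.4%), and 14 of them held 2 or more. Across all 15404 genes listed, 4.19% held the ISRE core. The GAS core lay in 11 of 38 (28.9%), against 9.02% of all genes. Both cores were present in MX1, GBP3, IFITM1, BST2, IFI27, PARP14 and EPSTI1, the GAS core without an ISRE core in OAS1, IRF1, IRF9 and IFI35, and neither in ADAR, HERC6, CMPK2, STAT2, BATF2, SP100, SAMD9L and XAF1.

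The stretches below hold the matches, with 15 bases on each side, for genes that rose with both treatments and for IFIT5. IFIT5 was lower with PRP in TPM, though not in reads. They are written 5′ to 3′ on the gene's strand with the motif cores in capitals. ISG15 (chr1:1013369-1013414, plus strand) held a pair of overlapping ISRE cores, IFITM3 (chr11:320871-320927, minus strand) and IFIT1 (chr10:89392492-89392544, plus strand) each held 2 separate ones, and IFIT5 (chr10:89414508-89414588, plus strand) held 3. DTX3L (chr3:122564317-122564356, plus strand) held 1, and the same bases were also the match in the window of PARP9, which starts beside it on the other strand. IRF1 (chr5:132490874-132490912, minus strand) is shown for the GAS core.
ISG15: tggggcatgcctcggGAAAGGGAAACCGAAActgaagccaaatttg
IFITM3: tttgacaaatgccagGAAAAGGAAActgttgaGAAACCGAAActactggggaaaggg
IFIT1: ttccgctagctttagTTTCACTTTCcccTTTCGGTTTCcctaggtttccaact
IFIT5: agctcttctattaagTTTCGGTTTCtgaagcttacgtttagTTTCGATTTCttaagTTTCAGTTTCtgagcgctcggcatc
DTX3L: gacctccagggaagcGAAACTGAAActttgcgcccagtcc
IRF1: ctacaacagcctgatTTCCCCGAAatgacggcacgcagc

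**Figure D1:**
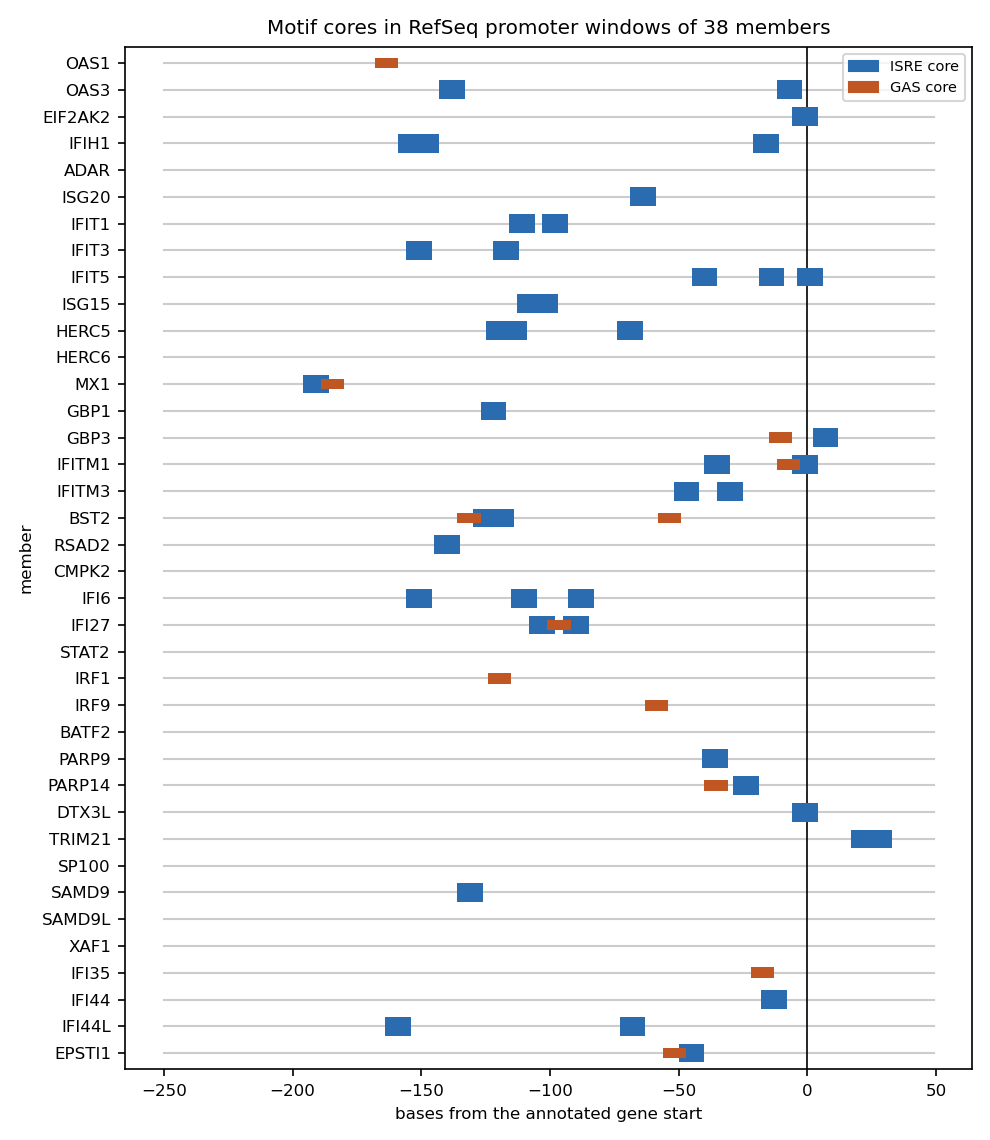
Positions of ISRE cores (blue) and GAS cores (orange) in the RefSeq promoter windows of the 38 interferon-stimulated genes listed there, with bases from the annotated gene start on the horizontal axis and one gene per row. For a gene with several windows, only the window with most matches is drawn, or the tied window with the lowest coordinate. Of the 38 genes, 26 carry an ISRE core and 11 a GAS core, and 8 rows hold neither.

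Levels are given in TPM, a gene's share of the transcripts in its library, computed from its reads per base of effective transcript length. Differences between groups were tested with limma on log2(TPM + 1) over all 12 libraries, for genes that reached 1 TPM in 4 libraries or more. A gene was called when its p-value, adjusted by Benjamini-Hochberg over all 12517 genes, was under 0.05. Differences on this scale understate the change of genes with low values. In every listing the values of replicates 1 to 4 stand in that order, and means carry the SD over 4 libraries. In RNA from a whole culture, more RNA per cell and a larger share of cells that make it cannot be told apart.

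Most of the interferon-stimulated genes were higher after either treatment. With plasma 33 of the 45 genes tested rose and 0 fell, against 20.3% of all genes tested that rose and 29% that fell. The median log2 difference of the 45 was 0.46, and that of all 12517 genes was -0.05. In 29 of the 45 every plasma library lay above every control library, which was so for 18.2% of all genes. With PRP 28 rose and 3 fell, against 21.7% and 31.5% of all genes, and the median was 0.30, against -0.06 over all genes. Every PRP library lay above every control library in 25 of the 45, against 19% of all genes. The differences were small in absolute size, running between -0.24 and 1.10 with plasma and between -0.62 and 0.999 with PRP. Beside the count of 0 lower with plasma, limma gave an unadjusted p under 0.05 in either direction for 35 of the 45, against 6937 of all 12517 genes, and 4 of the 45 had a negative difference, against 57.9% of all genes.

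The calls of both treatments can be set side by side, with the caution that they share the 4 control libraries. Higher in both were 28 genes. Another 5, IFI6, MX1, HERC6, SAMD9 and GBP2, were called higher with plasma and missed the threshold with PRP. IFIT5, IFIH1 and BATF2 were lower with PRP and missed the threshold with plasma. In the direct test of PRP against plasma none of these 8 genes passed, at adjusted p between 0.463 and 0.931. The remaining 9 of the 45, IFI44L, ISG20, STAT2, HERC5, USP18, SAMD9L, EIF2AK2, PARP14 and EPSTI1, passed in neither comparison.

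**Figure D2:**
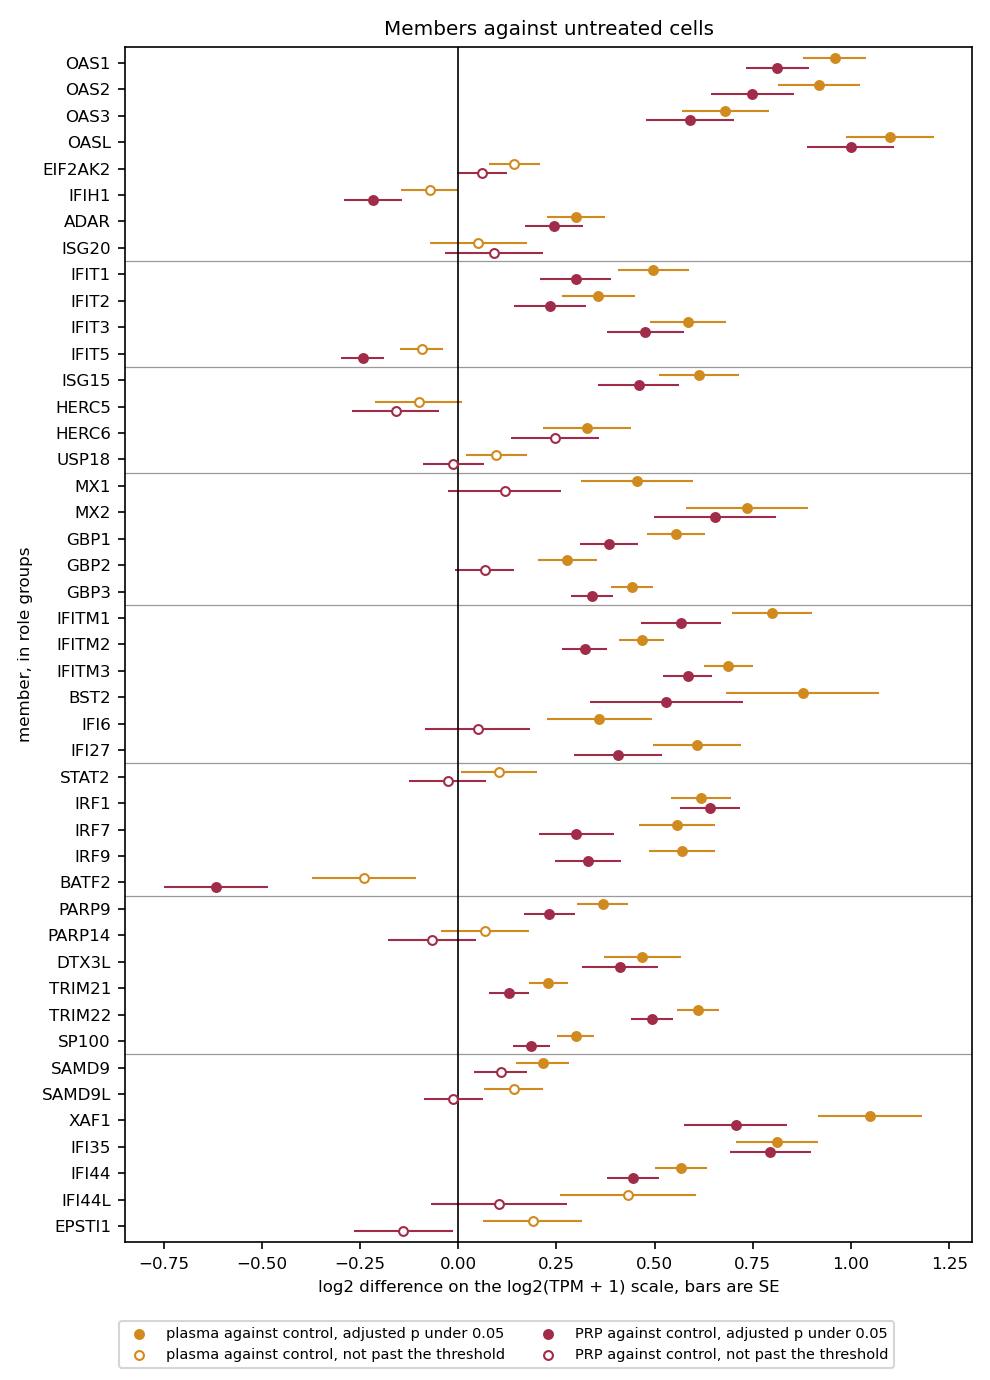
Difference of plasma (orange) and PRP (dark red) against control for the 45 interferon-stimulated genes tested, on the log2(TPM + 1) scale with bars for the SE of the limma fit and thin rules between the role groups. Filled points have an adjusted p under 0.05. OASL, XAF1 and OAS1 reach furthest to the right, and BATF2 furthest to the left.

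Among the RNA sensors and RNA-editing or RNA-decay enzymes, the 4 genes of the OAS family rose most. This class has 8 genes. With plasma 5 were called higher and 0 lower, and with PRP 5 higher and 1 lower. Of all genes tested, 20.3% were higher and 29% lower with plasma, and 21.7% and 31.5% with PRP. Those shares apply to the counts of every class below. OASL, which binds RNA and is not known to make oligoadenylates itself (chromosome 12, 121017761 to 121039246, GRCh38.p14), had 17.5, 18.4, 14.1 and 18.3 TPM with plasma, 16.3, 16.03, 17.3 and 13.7 TPM with PRP, and 7.77, 7.64, 5.79 and 8.70 TPM in control. No treated library came down to the control range. Its log2 difference was 1.10 ± 0.11 (SE, adjusted p = 3.08e-06) with plasma and 0.999 ± 0.11 (adjusted p = 5.54e-06) with PRP, and the ratio of mean TPM was 2.29 and 2.12.

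OAS1, which on binding double-stranded RNA makes the oligoadenylates that activate RNase L (chromosome 12, 112906962 to 112933219), had 81.7, 87.7, 69.5 and 79.3 TPM with plasma, 70.5, 64.7, 78.7 and 72.8 TPM with PRP, and 45.7, 40.9, 39.1 and 36.1 TPM in control. The lowest treated library thus stood well above the highest control library. The difference of 0.96 ± 0.08 (SE) with plasma had an adjusted p of 5.3e-07, the smallest among the 45 genes, and that of 0.81 ± 0.08 with PRP an adjusted p of 1.89e-06. The neighbouring OAS2 and OAS3 encode larger enzymes of the same reaction. OAS2 had 36.7, 38.4, 26.8 and 34.5 TPM with plasma, 31.3, 28.2, 32.1 and 28.4 TPM with PRP, and 19.97, 18.5, 16.9 and 14.8 TPM in control (log2 differences 0.92 and 0.75). OAS3 had 74.5, 76.3, 52.1 and 55.4 TPM with plasma, 65.7, 60.1, 61.1 and 52.7 TPM with PRP, and 42.4, 41.2, 37.2 and 36.9 TPM in control (0.68 and 0.59). Neither gene had a treated library within the control range.

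ADAR, which edits adenosine to inosine in double-stranded RNA, was the most abundant gene of the class. It had 117, 111, 94.1 and 99.0 TPM with plasma, 112, 103, 98.6 and 91.7 TPM with PRP, and 90.0, 90.0, 79.8 and 81.1 TPM in control. All treated libraries were above all control libraries, and the log2 differences were 0.30 ± 0.07 (SE, adjusted p = 0.0042) with plasma and 0.24 ± 0.07 (adjusted p = 0.0129) with PRP. IFIH1, the sensor of long double-stranded RNA also known as MDA5, went against the rest. Its TPM was 23.8, 24.1, 18.9 and 21.9 with plasma, 20.8, 19.2, 20.02 and 19.4 with PRP, and 23.5, 25.4, 22.1 and 22.0 in control. With PRP all libraries were below all control libraries (log2 difference -0.22 ± 0.07, adjusted p = 0.0217), while plasma libraries overlapped control (-0.07, adjusted p = 0.432). The PRP call was lost without PRP replicate 2 (-0.20, adjusted p = 0.054) or without control replicate 2 (-0.18, adjusted p = 0.0718). EIF2AK2, the RNA-activated kinase PKR that stops translation, had a difference of 0.14 with plasma (adjusted p = 0.0782) that passed without plasma replicate 3 (0.20, adjusted p = 0.0204). It also passed with each library centred on its median (0.199, adjusted p = 0.0104), but not on estimated reads with limma's voom (0.058, adjusted p = 0.357). Its effective length was 0.16 lower on the log2 scale with plasma. ISG20, an RNA exonuclease, had 0.05 and 0.09 and passed in neither comparison.

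The IFIT genes, whose proteins bind foreign RNA ends and lie side by side on chromosome 10, did not move as 1 block. IFIT1, IFIT2 and IFIT3 rose with either treatment, while IFIT5 did not rise with either. IFIT3 was the most abundant, with 58.1, 70.9, 46.2 and 64.0 TPM with plasma, 54.8, 53.8, 59.0 and 51.5 TPM with PRP, and 40.5, 41.1, 36.9 and 37.98 TPM in control. All of its treated libraries were above control (log2 differences 0.58 ± 0.10, adjusted p = 0.000232, with plasma and 0.48 ± 0.10, adjusted p = 0.00101, with PRP). IFIT1 averaged 24.4 ± 3.69 TPM with plasma, 21.0 ± 1.46 TPM with PRP and 16.9 ± 0.963 TPM in control, with log2 differences of 0.50 and 0.30. IFIT2 had 0.36 (adjusted p = 0.00538) with plasma and 0.23 (adjusted p = 0.0448) with PRP. The PRP call of IFIT2 was near the threshold and was lost when any of plasma replicates 1 and 4, PRP replicates 1, 2 and 3 or control replicates 3 and 4 was left out, at adjusted p between 0.0523 and 0.142.

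IFIT5 (chromosome 10, 89414568 to 89420997), whose window holds 3 ISRE cores, had 30.4, 29.8, 26.1 and 30.5 TPM with plasma, 25.1, 25.6, 27.0 and 27.0 TPM with PRP, and 30.5, 29.8, 32.2 and 32.3 TPM in control. PRP libraries all lay under the control range, and plasma libraries overlapped it. The log2 difference was -0.24 ± 0.06 (SE, adjusted p = 0.00214) with PRP and -0.09 ± 0.06 (adjusted p = 0.179) with plasma. The decrease was measured in TPM and was not found in reads. The effective length given for IFIT5 was 0.17 higher on the log2 scale with PRP than in control, and a test on its estimated reads, with limma's voom, gave a PRP difference of -0.004 (adjusted p = 0.947). A gene whose effective length rises loses TPM at equal reads. Voom also used library sizes set from median ratios of reads between libraries, so it differs from the TPM fit in more than effective length. IFIT1, with a change of 0.000 in effective length with plasma, had a plasma difference of 0.497 in TPM and 0.590 with voom.

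ISG15, a ubiquitin-like protein that is attached to newly made proteins and also secreted, rose with either treatment, as did HERC6 with plasma, while HERC5 and USP18 passed in neither comparison. ISG15 (chromosome 1, 1013497 to 1014540) had 229, 270.2, 181 and 231 TPM with plasma, 206, 172, 232 and 207 TPM with PRP, and 157, 151, 140.2 and 142 TPM in control. Both treated groups were clear of control (log2 differences 0.61 ± 0.10, adjusted p = 0.000259, and 0.46 ± 0.10, adjusted p = 0.00195). USP18, which removes ISG15 and restrains the type I receptor, had 20.9, 24.5, 17.6 and 21.2 TPM with plasma, 19.3, 19.5, 20.6 and 18.1 TPM with PRP, and 19.2, 19.96, 19.4 and 19.4 TPM in control. These ranges overlapped, with differences of 0.10 (adjusted p = 0.316) and -0.01 (adjusted p = 0.909), and without plasma replicate 3 the plasma difference passed at 0.17 (adjusted p = 0.0415). HERC5, the main ISG15 ligase in human cells, averaged 2.76 ± 0.464 TPM with plasma, 2.60 ± 0.299 TPM with PRP and 3.02 ± 0.486 TPM in control (-0.10 and -0.16, neither called). HERC6, the ligase of ISG15 in mouse, was called higher with plasma (0.33, adjusted p = 0.0254). That call was lost without plasma replicate 1 or 2 or control replicate 2, 3 or 4, at adjusted p between 0.0541 and 0.0853. Its PRP difference of 0.25 (adjusted p = 0.0782) passed without plasma replicate 3 (adjusted p = 0.032). It also passed with each library centred on its median (0.310, adjusted p = 0.0224) and on estimated reads with voom (0.341, adjusted p = 0.017).

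All 5 GTPase genes rose with plasma and 3 of the 5 with PRP. GBP1, a guanylate-binding protein that coats intracellular bacteria and vacuoles, had 42.7, 43.0, 36.3 and 39.3 TPM with plasma, 38.4, 33.6, 37.2 and 33.4 TPM with PRP, and 28.8, 29.9, 25.3 and 24.6 TPM in control. No treated library overlapped control (log2 differences 0.56 ± 0.07, adjusted p = 3.73e-05, and 0.38 ± 0.07, adjusted p = 0.000668). MX2, which acts on retroviral capsids at the nuclear pore, had 4.74, 5.88, 3.87 and 7.80 TPM with plasma, 4.87, 4.80, 6.18 and 4.52 TPM with PRP, and 3.55, 2.51, 2.59 and 2.84 TPM in control. It too was above control in every treated library, with a wide spread in the plasma group (0.73 ± 0.16, adjusted p = 0.00149, and 0.65 ± 0.16, adjusted p = 0.00293). GBP3 had 0.44 and 0.34, with adjusted p of 1.49e-05 and 0.000122.

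MX1, which blocks influenza and other viruses in the cytoplasm (chromosome 21, 41420558 to 41459214), overlapped control in 1 plasma library. It had 56.3, 59.5, 34.9 and 47.7 TPM with plasma, 40.9, 34.0, 46.2 and 33.3 TPM with PRP, and 40.0, 35.2, 33.5 and 32.5 TPM in control. Plasma replicate 3 lay within the control range and the other plasma libraries above it. The plasma difference was 0.46 ± 0.14 (SE, adjusted p = 0.0171), and it missed the threshold without plasma replicate 1 (0.39, adjusted p = 0.0516) or plasma replicate 2 (0.36, adjusted p = 0.0578). With PRP it was 0.12 ± 0.14 (adjusted p = 0.51). GBP2 had 0.28 (adjusted p = 0.00704) with plasma and 0.07 (adjusted p = 0.469) with PRP. The direct test of PRP against plasma gave -0.34 (adjusted p = 0.57) for MX1 and -0.21 (adjusted p = 0.468) for GBP2, so a difference between the treatments was not shown for either.

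Membrane and organelle effectors were the most abundant class, and the 6 tested of its 8 genes all rose with plasma, 5 of them also with PRP. IFITM3, which blocks the fusion of endocytosed viruses (chromosome 11, 319676 to 320860), had 939, 928, 776 and 858 TPM with plasma, 812, 794, 826 and 818 TPM with PRP, and 595, 557, 536 and 485 TPM in control. It was the most abundant of the 47 genes, and treated and control libraries did not overlap (log2 differences 0.69 ± 0.06, adjusted p = 1.19e-06, and 0.58 ± 0.06, adjusted p = 4.06e-06). IFITM1, which acts nearer the cell surface, had 440.4, 472, 359 and 353 TPM with plasma, 331, 335, 379 and 332 TPM with PRP, and 251, 262, 193 and 225 TPM in control (0.80 and 0.57, no overlap). IFITM2 averaged 236 ± 6.05 TPM with plasma, 214 ± 9.74 TPM with PRP and 171 ± 17.1 TPM in control (0.47 and 0.32, both called). The 3 IFITM genes are near-identical neighbours, so the estimated split of reads among them is uncertain, and the same may hold for paralogues among the IFIT, GBP, MX and SAMD9 genes.

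IFI27, a mitochondrial and nuclear-envelope protein that is among the most strongly interferon-induced genes in epithelium, had 827, 881, 680.2 and 714 TPM with plasma, 644, 595, 764 and 697 TPM with PRP, and 629, 520.0, 468 and 429 TPM in control. Plasma libraries were all above control, whereas PRP replicate 2 fell within the control range (log2 differences 0.61 ± 0.11, adjusted p = 0.000522, and 0.41 ± 0.11, adjusted p = 0.00717). BST2, or tetherin, which holds budding virions at the cell surface, had 5.14, 4.71, 2.75 and 4.02 TPM with plasma, 3.12, 2.34, 3.76 and 2.85 TPM with PRP, and 1.84, 2.52, 0.852 and 2.13 TPM in control. Behind these values stood 17 to 100 estimated reads per library. Plasma libraries were above the control range and PRP libraries overlapped it. The plasma difference was 0.88 ± 0.19 (adjusted p = 0.00203), and the PRP difference of 0.53 ± 0.19 (adjusted p = 0.0335) was lost without PRP replicate 1, 3 or 4 or control replicate 1 or 3, at adjusted p between 0.0515 and 0.103. On estimated reads the PRP difference of BST2 was 0.86 with voom. IFI6, an endoplasmic reticulum protein active against flaviviruses, averaged 167 ± 27.9 TPM with plasma, 134 ± 20.4 TPM with PRP and 130 ± 20.3 TPM in control. Its plasma call (0.36, adjusted p = 0.0392) was lost without plasma replicate 1, 2 or 4 or control replicate 2, 3 or 4, at adjusted p between 0.0627 and 0.119. It was also lost without the filter on low values (adjusted p = 0.0813).

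RSAD2 and CMPK2, neighbours on chromosome 2 that together supply an antiviral nucleotide, were below the filter and were not tested. RSAD2, or viperin, had 62.7, 75, 45 and 75 estimated reads with plasma, 42, 33, 48 and 51 with PRP, and 28, 53.4, 32 and 35 in control. CMPK2 had 19, 40, 21 and 50 estimated reads with plasma, 25, 26, 31 and 26 with PRP, and 21, 9, 20 and 11 in control. Control replicate 2 of RSAD2 and control replicates 1 and 3 of CMPK2 reached into the plasma range. In a fit without the filter, RSAD2 had a difference of 0.29 (adjusted p = 0.0253) with plasma and 0.08 (adjusted p = 0.546) with PRP, and CMPK2 0.24 (adjusted p = 0.0463) and 0.18 (adjusted p = 0.126).

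**Figure D3:**
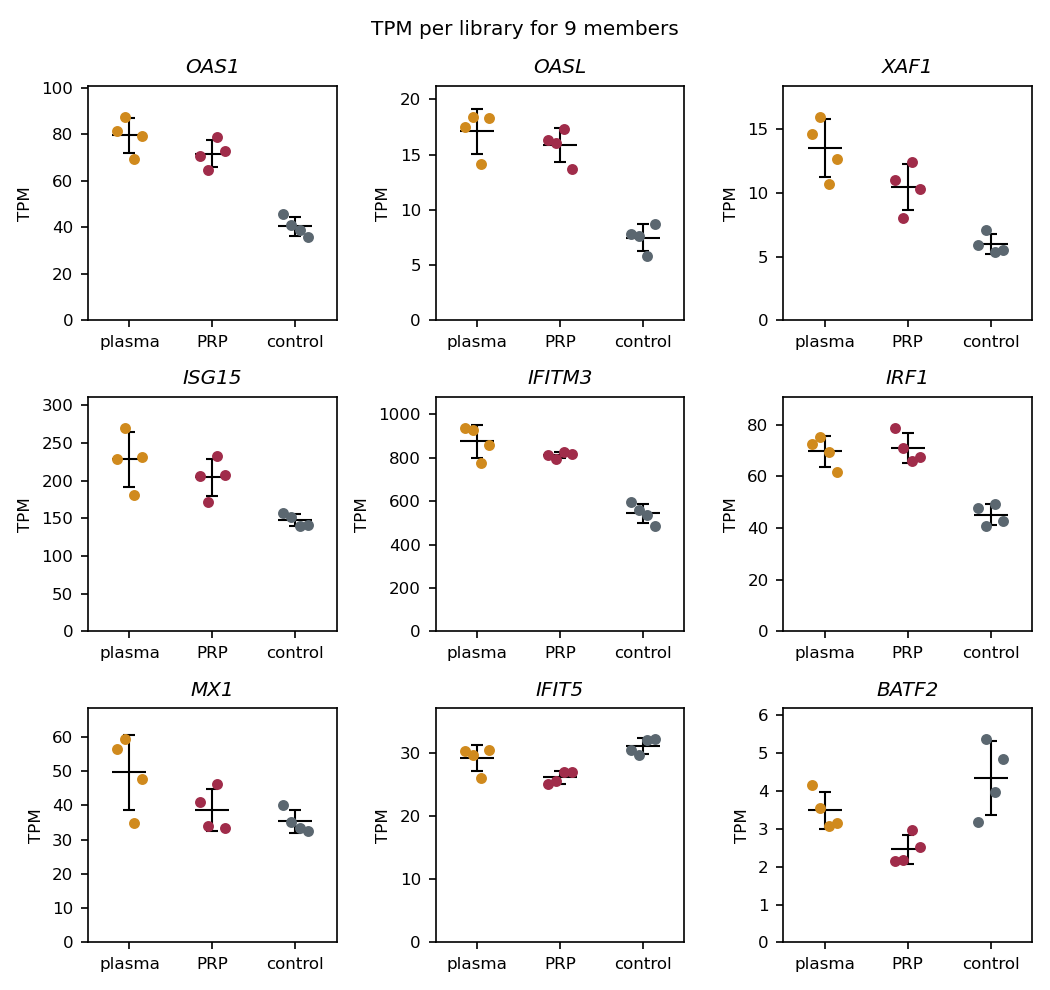
TPM in each library for 9 of the interferon-stimulated genes, with plasma, PRP and control from left to right, points for libraries, horizontal bars for means and error bars for the SD (n = 4). OAS1, OASL, XAF1, ISG15, IFITM3 and IRF1 show both treated groups clear of control, MX1 shows plasma replicate 3 at 34.9 TPM inside the control range, and IFIT5 and BATF2 show PRP below control.

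Of the 5 transcription factor genes, the 3 interferon regulatory factors rose with either treatment, while STAT2 did not pass and BATF2 was lower with PRP. IRF1, which is itself induced through a GAS and activates many interferon targets (chromosome 5, 132481609 to 132490773), had 72.7, 75.3, 69.2 and 61.6 TPM with plasma, 78.8, 70.9, 65.9 and 67.5 TPM with PRP, and 47.6, 40.7, 49.4 and 42.6 TPM in control. All 8 treated libraries were above control, with log2 differences of 0.62 ± 0.08 (SE, adjusted p = 1.67e-05) and 0.64 ± 0.08 (adjusted p = 9.53e-06). Its effective length was 0.20 and 0.14 higher on the log2 scale with plasma and PRP. On estimated reads with voom, which also scales libraries differently, the differences were 0.90 and 0.87. IRF9, the DNA-binding part of the STAT complex, had 79.3, 88.8, 66.1 and 70.8 TPM with plasma, 65.8, 60.04, 61.0 and 69.6 TPM with PRP, and 55.9, 52.4, 48.0 and 46.98 TPM in control. It was above control throughout (0.57 ± 0.08, adjusted p = 7.94e-05, and 0.33 ± 0.08, adjusted p = 0.00435).

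IRF7, the factor that amplifies interferon alpha production, averaged 33.4 ± 6.12 TPM with plasma, 27.5 ± 1.148 TPM with PRP and 22.1 ± 1.01 TPM in control (log2 differences 0.56 and 0.30, both called). STAT2 averaged 36.8 ± 3.13, 33.5 ± 2.43 and 34.5 ± 5.66 TPM in plasma, PRP and control libraries, and differed by 0.10 and -0.03 without passing. BATF2, a basic leucine zipper factor of the AP-1 family, was the gene with the largest decrease. Its TPM was 4.16, 3.54, 3.08 and 3.16 with plasma, 2.15, 2.17, 2.98 and 2.53 with PRP, and 3.18, 5.38, 3.97 and 4.83 in control. Every PRP library was under every control library and every plasma library (PRP against control -0.62 ± 0.13, adjusted p = 0.00136, and PRP against plasma -0.38, adjusted p = 0.463). The plasma difference of -0.24 (adjusted p = 0.148) passed without control replicate 1 (-0.35, adjusted p = 0.0311).

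In the class of ADP-ribosylation, ubiquitin and nuclear body proteins, 5 of 6 genes rose with plasma and the same count with PRP. TRIM22, an antiviral ubiquitin ligase, had 61.0, 65.7, 59.2 and 58.1 TPM with plasma, 58.8, 53.6, 55.7 and 56.5 TPM with PRP, and 42.7, 40.6, 36.7 and 38.4 TPM in control. The groups treated and untreated were far apart relative to their spread (log2 differences 0.61 ± 0.05, adjusted p = 7.5e-07, and 0.49 ± 0.05, adjusted p = 4.05e-06). SP100, a component of nuclear bodies that silences viral genomes, had 83.4, 71.7, 75.3 and 73.6 TPM with plasma, 69.7, 69.5, 70.8 and 70.5 TPM with PRP, and 61.9, 62.4, 58.1 and 63.8 TPM in control. Its rise was small and without overlap (0.30 and 0.19).

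PARP9 and DTX3L, which form 1 complex and share the ISRE core shown above, both rose. PARP9 averaged 49.5 ± 5.22 TPM with plasma, 44.8 ± 1.39 TPM with PRP and 38.02 ± 1.85 TPM in control (log2 differences 0.37 and 0.23). DTX3L averaged 37.3 ± 4.67 TPM with plasma, 35.7 ± 2.74 TPM with PRP and 26.7 ± 3.43 TPM in control (0.47 and 0.41). Their annotated ends overlap on opposite strands, as do those of RSAD2 and CMPK2. No source states if strand was used, and reads in the overlap cannot be told apart. TRIM21, the cytosolic antibody receptor, rose by 0.23 with plasma (adjusted p = 0.00184). Its PRP difference of 0.13 (adjusted p = 0.0425) was lost when any 1 of 8 libraries was left out, namely plasma replicates 1 and 4, PRP replicates 1, 2 and 4 and control replicates 1, 2 and 3, at adjusted p between 0.0515 and 0.104, and was 0.22 on estimated reads with voom. PARP14, another interferon-induced ADP-ribosyltransferase, had 0.07 and -0.07 and was not called.

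Of the 7 other interferon-induced genes, 4 rose with plasma and 3 with PRP. XAF1, which counters the apoptosis inhibitor XIAP (chromosome 17, 6755447 to 6775647), had 14.7, 16, 10.7 and 12.7 TPM with plasma, 11.1, 8.07, 12.5 and 10.3 TPM with PRP, and 5.94, 7.12, 5.38 and 5.53 TPM in control. All treated libraries were above control (log2 differences 1.05 ± 0.13, adjusted p = 2.1e-05, and 0.71 ± 0.13, adjusted p = 0.000486), with 1.06 for PRP on estimated reads with voom. IFI35, a leucine zipper protein of the interferon response, had 34.3, 34.8, 30.1 and 28.7 TPM with plasma, 32.0, 29.2, 32.7 and 32.3 TPM with PRP, and 21.1, 19.3, 17.6 and 13.7 TPM in control. Its plasma and PRP libraries covered nearly the same range (0.81 and 0.80, PRP minus plasma -0.02). IFI44 had 78.8, 88.0, 70.7 and 81.8 TPM with plasma, 74.3, 68.0, 78.0 and 71.8 TPM with PRP, and 54.0, 49.8, 58.0 and 51.9 TPM in control (0.57 and 0.44, no overlap).

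The neighbour of IFI44, IFI44L, did not pass although its mean was higher with plasma. Its TPM averaged 27.8 ± 7.05 with plasma, 21.5 ± 3.30 with PRP and 20.02 ± 3.69 in control, and the plasma difference of 0.43 (adjusted p = 0.0517) passed without plasma replicate 3, without PRP replicate 3 or without control replicate 1, at adjusted p between 0.0023 and 0.049. SAMD9, an antiviral factor that restrains translation, had 45.0, 44.3, 36.4 and 40.0 TPM with plasma, 41.3, 35.8, 40.5 and 35.7 TPM with PRP, and 34.5, 35.7, 35.8 and 35.6 TPM in control. Its plasma libraries were above control, narrowly in replicate 3 (0.21, adjusted p = 0.0173), and the call was lost without plasma replicate 1 (0.17, adjusted p = 0.0553) or plasma replicate 2 (0.18, adjusted p = 0.0555). The PRP difference of 0.11 had an adjusted p of 0.196. It passed with each library centred on its median (0.172, adjusted p = 0.0275) and on estimated reads with voom (0.190, adjusted p = 0.0125). The paralogue SAMD9L had 0.14 and -0.01, and its plasma difference passed without plasma replicate 3 (0.21, adjusted p = 0.0289). That difference also passed with median centring (0.197, adjusted p = 0.028) and with voom (0.248, adjusted p = 0.00244). EPSTI1 had 0.19 and -0.14 and was called in neither.

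Libraries of 1 group differed from each other in the level of these genes as a set. Plasma replicate 3 was the lowest plasma library in 38 of the 45 genes (84.4%), and in 31.3% of all genes. The highest plasma library was replicate 2 in 31 of the 45 (68.9%), against 25.5% of all genes. Their median log2 difference from the control mean was 0.49, 0.61, 0.24 and 0.44 in plasma replicates 1 to 4, 0.32, 0.21, 0.34 and 0.27 in PRP replicates 1 to 4, and 0.09, 0.04, -0.08 and -0.08 in control replicates 1 to 4. Each of the 8 treated libraries was thus above each control library by this median, and plasma replicate 3 was within the PRP range. Among PRP libraries replicate 3 was the highest in 26 of the 45, against 18.8% of all genes. Replicate 2 was the lowest PRP library in 22 of the 45, against 17.8% of all genes. Plasma replicate 2 was also the library with the fewest reads, and the part of depth in this order was not tested.

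**Figure D4:**
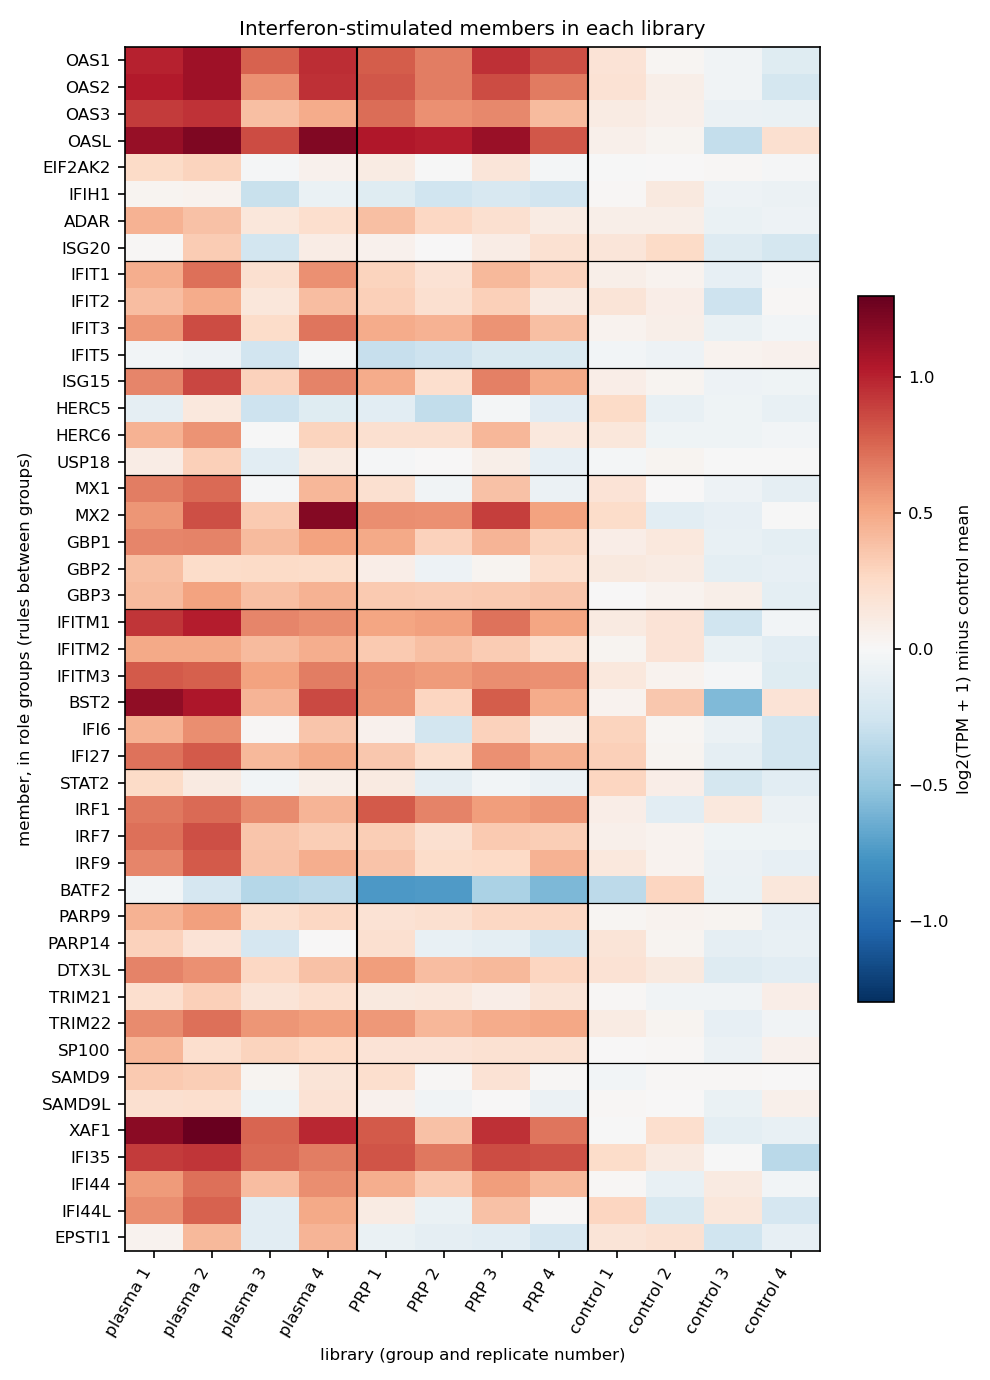
Heat map of the 45 tested interferon-stimulated genes (rows, grouped by role) in the 12 libraries (columns, plasma, PRP and control from left to right), with colour for log2(TPM + 1) minus the control mean of the gene. The OAS genes, XAF1 and IFI35 are red in all 8 treated libraries, the column of plasma replicate 3 is paler than the other plasma columns, and BATF2 is blue in the PRP columns.

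PRP and plasma were then compared directly. Donors are not stated for either, so what platelets add cannot be told apart from donor or preparation. None of the 45 genes passed the threshold in limma (0 higher and 0 lower), and over all genes 0.0639% were higher and 0% lower. The lowest adjusted p of the 45 was 0.463, for BATF2 and IRF9 (log2 differences PRP minus plasma -0.38 and -0.24). An unadjusted p under 0.05 was found for 15 of the 45 and for 999 of all 12517 genes, and voom on the estimated reads also called 0. The differences ran between -0.38 and 0.04, and 43 of the 45 were negative, against 52% of all genes. Their median was -0.13, against -0.004 over all genes. In 6 of the 45, BATF2, GBP2, GBP3, IFITM2, TRIM21 and SP100, every PRP library was below every plasma library, which was so for 2.59% of all genes. Genes of 1 pathway move together within a library, so these counts are not those of independent genes.

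Genes with and without each motif core were described for the windows available. Of all genes tested, 20.3% were called higher and 29% lower with plasma, and 21.7% and 31.5% with PRP. Of 25 tested genes with an ISRE core, 17 were called higher and 0 lower with plasma, against 14 higher and 2 lower with PRP, at median log2 differences of 0.44 and 0.23. Of 11 tested genes without it, 8 were called higher and 0 lower with plasma, against 7 higher and 1 lower with PRP, at 0.33 and 0.25. For the GAS core the counts were 9 of 11 higher with plasma and 8 of 11 with PRP (medians 0.61 and 0.41), against 16 of 25 and 13 of 25 in genes without it (0.33 and 0.19). IFIH1 and IFIT5, lower with PRP in TPM, both carry 3 ISRE cores, and the decrease of IFIT5 was not found in reads. OAS1, IRF1, IRF9 and IFI35 rose with a GAS core and no ISRE core in the window.

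Messenger RNA of the interferon ligand genes listed was at 13.0 reads or fewer in every library. Of the interferon alpha genes the list holds only IFNA1 and IFNA2. Of 10 ligand genes none was tested, and IFNA1, IFNA2, IFNW1 and IFNG had 0 reads in all 12 libraries, which allows up to 0.0827 CPM (reads scaled to library size) in the library with the fewest reads, taking 3 reads as the smallest detectable count and allowing for counting error alone. IFNE, an epithelial interferon, had at most 5.0 reads with plasma, 6.0 with PRP and 13.0 in control. The lambda interferon IFNL1 had at most 8.0, 5.0 and 5.0, IFNL2 at most 7.9, 1.0 and 6.0, and IFNL3 at most 4.0, 5.0 and 3.0 in plasma, PRP and control libraries. IFNB1 had at most 1.0, 0.0 and 3.0 reads and the keratinocyte interferon IFNK at most 3.0, 2.0 and 4.0. At these counts no difference between groups was detectable, and interferon protein in the added plasma was not measured.

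Among receptors and kinases, 3 of the 9 genes were called higher and 1 lower with plasma, against 20.3% and 29% of all genes, and 2 higher and 1 lower with PRP, against 21.7% and 31.5%. IFNGR2, the signalling chain of the interferon gamma receptor, differed by 0.34 and 0.35 (adjusted p = 3.08e-06 and 1.73e-06), IFNAR2, a chain of the type I receptor, by 0.42 and 0.38 (adjusted p = 0.000363 and 0.000681), and the kinase gene TYK2 by -0.29 and -0.32 (adjusted p = 0.00194 and 0.000824). The effective length of TYK2 was 0.14 and 0.16 higher on the log2 scale, and voom on its estimated reads gave -0.08 with plasma (adjusted p = 0.0639), no longer called, and -0.09 with PRP (adjusted p = 0.0451). In the sensing pathway upstream of interferon, 9 of 10 genes were tested, of which plasma gave 3 higher and 3 lower calls (CGAS, DHX58 and TBK1) and PRP gave 3 higher and 4 lower (RIGI in addition). The shares of all genes just given apply to these counts too. On estimated reads with voom, DHX58 with plasma (-0.225, adjusted p = 0.0867) and RIGI with PRP (-0.195, adjusted p = 0.051) were no longer called. IKBKE, a kinase that activates interferon regulatory factors, differed by 1.253 and 1.273 (adjusted p = 5.48e-08 and 3.44e-08), TLR3, the endosomal receptor for double-stranded RNA, by 0.98 and 0.81 (adjusted p = 3.7e-07 and 1.68e-06), and STING1, the adaptor of cytosolic DNA sensing, by 0.68 and 0.66 (adjusted p = 7.85e-06 and 7.91e-06).

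Of 8 negative regulators 2 were called higher and 3 lower with plasma and 2 higher and 2 lower with PRP, shares near those of all genes (20.3% higher and 29% lower with plasma, 21.7% and 31.5% with PRP). SOCS3, an inhibitor of JAK signalling that interleukin-6 also induces, differed by 0.51 and 0.41 (adjusted p = 5.9e-05 and 0.000354), the phosphatase gene PTPN6 by 0.33 and 0.30 (adjusted p = 0.00117 and 0.00225) and PTPN2, a phosphatase that acts on JAK1, by -0.16 and -0.17 (adjusted p = 0.00253 and 0.00129). On estimated reads neither PTPN2 call held, at -0.03 (adjusted p = 0.522) and -0.08 (adjusted p = 0.0603) with voom. Its effective length was 0.059 and 0.009 higher on the log2 scale, and voom also scaled the libraries differently, so these calls depended on the processing. The lower call of SOCS1 with plasma did not hold there either (-0.331, adjusted p = 0.0974). Among 28 tested of 30 other interferon-stimulated genes, plasma gave 14 higher and 0 lower calls and PRP 10 higher and 1 lower, at medians of 0.16 and 0.05. The lower call, NMI, was lost on estimated reads with voom (-0.070, adjusted p = 0.199). RTP4 differed by 0.89 and 0.82 (adjusted p = 9.95e-06 and 1.69e-05), the DNA sensor gene IFI16 by 0.39 and 0.25 (adjusted p = 1.82e-05 and 0.000569) and UBE2L6, the conjugating enzyme for ISG15, by 0.44 and 0.36 (adjusted p = 8.74e-05 and 0.000351). Of 6 tested of 10 genes induced mainly by interferon gamma, 4 rose and 0 fell with either treatment. GBP4 differed by 0.98 and 0.82 (adjusted p = 8.7e-07 and 3.65e-06), SECTM1 by 1.24 and 1.17 (adjusted p = 1.78e-05 and 2.42e-05) and IDO1, which degrades tryptophan, by 0.73 and 0.59 (adjusted p = 0.000237 and 0.00103). On estimated reads with voom, IDO1 differed by 1.43 and 1.21 and SECTM1 by 1.07 and 0.97. The effective length of SECTM1 was 0.38 and 0.42 lower on the log2 scale with plasma and PRP. In PRP against plasma limma called 0 genes of these lists.

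Depth and cell identity were checked in every library. Total estimated reads ran from 36258955 to 41946780 with plasma, from 36943548 to 41976136 with PRP and from 40166503 to 41531218 in control. All 10 markers of oral squamous epithelium were at 1 TPM or more in every library, and their summed TPM was 14190 to 15530 with plasma, 14220 to 15810 with PRP and 11590 to 13000 in control. These markers did not all move 1 way. KRT5 had 7334 to 8164 TPM with plasma, 7275 to 8295 TPM with PRP and 4531 to 5055 TPM in control. KRT17 had 1749 to 1823 TPM with plasma, 1616 to 1683 TPM with PRP and 2565 to 2947 TPM in control. Of 13 leukocyte markers, which include those of plasmacytoid dendritic cells, MS4A1, FCGR3A, NKG7, LILRA4 and CLEC4C were at 0 reads throughout, and the sum was 6.18 to 7.74 TPM with plasma, 6.72 to 8.07 TPM with PRP and 4.26 to 5.27 TPM in control. Its members went opposite ways, with CD14 at 3.95 to 5.59 TPM with plasma, 4.23 to 6.27 TPM with PRP and 1.01 to 2.72 TPM in control, and the general leukocyte marker PTPRC at 2 to 9 reads with plasma, 2 to 7 reads with PRP and 25 to 35 reads in control. Of 8 platelet and erythroid markers PF4, GP9 and HBB were at 0 reads in all libraries, with sums of 1.58 to 2.35, 1.48 to 3.18 and 1.81 to 3.31 TPM in plasma, PRP and control libraries. The 9 fibroblast and endothelial markers summed to 44.0 to 55.3, 43.3 to 49.7 and 28.7 to 43.4 TPM in the same order of groups. Here CDH5 had 22.6 to 29.1 TPM with plasma, 22.1 to 26.9 TPM with PRP and 6.53 to 14.3 TPM in control, whereas LUM had 3.48 to 4.45 TPM with plasma, 3.07 to 3.65 TPM with PRP and 7.59 to 9.25 TPM in control. The part of these marker sums in the differences of interferon-stimulated genes was not tested.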

How the data were processed

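Per the submitters' processing notes, reads were quantified with Salmon against hg38, and the version, the transcript set and the handling of strand are not given in the sources used here. Per the file headers, each deposited file gives length, effective length, TPM and estimated read counts for the genes of 1 library, with decimal commas. In 2 plasma files the TPM column carries the library's name. TPM recomputed from the deposited estimated reads and effective lengths matched for all 20375 genes of every library, within 1% plus 0.01 TPM.

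Groups were compared with limma-trend on log2(TPM + 1), a pseudocount of 1 (versions: limma 3.58.1, R 4.3.3). Genes had to reach 1 TPM in 4 libraries or more. All 12 libraries entered 1 model with a mean for each group, which left 9 residual degrees of freedom. Two-sided p-values were adjusted over the 12517 genes by Benjamini-Hochberg, at 0.05. The columns could be registered only without a count unit because of the decimal commas, so no count model was run, and estimated reads were tested with limma's voom as 1 of 20 alternatives. Library sizes for voom were set from median ratios of reads between libraries, so library scaling also differed from that of TPM. Scripts were checked on simulated data. Promoter windows, gene coordinates and sequences are from RefSeq (GRCh38.p14), and windows were searched in Python 3.11.15.

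The genes and lists were chosen with earlier results of these data known. Values of every library are given for the 10 called genes with the largest difference from control, the 2 most abundant of each class and each called gene of opposite sign. Labels do not say that replicate numbers mark shared cultures, so the main fit did not take them as pairs. Same-numbered libraries of different groups had correlations of their deviations between -0.0672 and 0.304, others between -0.22 and 0.203. All same-numbered correlations but the lowest were positive, and a batch shared by such libraries was not tested. A fit with the replicate number as a block is given below. Counting floors and depth cover counting error only. Some items of the lists are not reported here.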

Additional observations from a re-analysis of the deposited data

Results flagged for a closer look

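In 144 sets of 4 libraries examined (47 genes and the total reads in 3 groups), 12 held a library whose gap to the nearest other, as a share of the range, was above Dixon's 95% critical value for sets of this size. Chance flags about 1 in 20 such sets, or 7.20 here. In plasma replicate 3, IFIT5 had 26.15 TPM (others 29.78 to 30.51), IFITM2 had 227.2 TPM (237.8 to 240.0) and SAMD9L had 6.438 TPM (7.791 to 8.009). In plasma replicate 1, GBP2 had 26.45 TPM (23.78 to 23.89). Among PRP libraries, IFITM1 had 379.0 TPM in replicate 3 (330.9 to 334.9) and IRF7 had 25.78 TPM in replicate 2 (27.94 to 28.27). In control replicate 1, HERC5 had 3.749 TPM (2.734 to 2.863), HERC6 had 7.384 TPM (6.285 to 6.396) and SAMD9 had 34.46 TPM (35.65 to 35.79), and in control replicate 2 RSAD2 had 0.6737 TPM (0.3418 to 0.3913). Total estimated reads were 36258955 in plasma replicate 2, against 41752302 to 41946780 in the other plasma libraries, and 36943548 in PRP replicate 1, against 41872643 to 41976136 in the other PRP libraries.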

How the results depend on the processing

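Over 20 alternatives the number of genes higher with plasma was between 29 and 37 (29 to 37 with 1 library left out) and higher with PRP between 25 and 30 (25 to 29), and in PRP against plasma it was 0 in both directions in each of them. The number lower with PRP was 2 or 3. The number lower with plasma, 0 in the fit reported, was 1 without the 3 libraries numbered 1, those with the lowest share of mitochondrial reads in each group, and between 0 and 1 with 1 library left out, the gene being BATF2. With the replicate number as a replicate block, 32 genes were higher with plasma, IFI6 being lost (adjusted p = 0.05), and 28 higher and 3 lower with PRP. Calls held in every alternative for 29 of 33 genes with plasma (all but IFI6, MX1, HERC6 and SAMD9) and 26 of 31 with PRP (all but IFIT2, IFIT5, IFIH1, BST2 and TRIM21). Of 12 genes not called with plasma, 5 passed in some alternative (IFI44L, USP18, SAMD9L, EIF2AK2 and BATF2). With PRP 2 of 14 did so (HERC6 and SAMD9). The sign changed only in differences that were not called. With voom these were IFIT5 (0.063) and ISG20 (-0.037) with plasma, and STAT2 (0.057), USP18 (0.068), SAMD9L (0.047) and EIF2AK2 (-0.031) with PRP. With median centring they were STAT2 (0.036), USP18 (0.052) and SAMD9L (0.051) with PRP, and without the 3 libraries numbered 1 STAT2 (0.018) with PRP. With 1 library left out, the range was -0.041 to 0.147 for ISG20 and -0.010 to 0.161 for PARP14 with plasma, and with PRP -0.034 to 0.146 for IFI6, -0.103 to 0.065 for STAT2, -0.040 to 0.019 for USP18 and -0.043 to 0.008 for SAMD9L. The cause was not tested.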
